A study of Mus musculus with 10 samples.

Results

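The genes described here are 59 mouse genes whose proteins bind RNA, splice it, mark it, degrade it or translate it. They were taken by name, and a gene counted as carrying a peak when both ends of a peak lay in its exons, on its strand, in the mm10 assembly. All 59 names matched 1 gene each in the GENCODE M21 annotation, and 50 of the 59 carried a peak in at least 1 list, among 3641 protein-coding genes with a peak and 21951 protein-coding genes in all. The classes held 12 SR proteins and relatives, 9 hnRNPs, 8 other splicing regulators and RNA-binding proteins, 4 subunits or partners of the m6A writer complex, 7 mRNA-stabilizing and FMRP-family proteins, 14 decay and silencing factors and 5 translation factors.

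N6-methyladenosine (m6A) was mapped by MeRIP-seq, in which RNA fragments are precipitated with an anti-m6A antibody and sequenced beside the unprecipitated input. The cells were 3T3-L1, an established mouse line of preadipocytes that turns into fat cells under a hormone cocktail. The 10 libraries formed 5 conditions with 1 IP and 1 input each. DMSO Pre cells were preadipocytes given the solvent, with no days of treatment labelled. DMSO MCE cells were preadipocytes in mitotic clonal expansion, the round of divisions after induction, and DMSO Diff cells were labelled mature adipocytes. Both had the solvent from day 0 to day 3. Rhein MCE and rhein Diff cells were the same stages after 20 µM rhein, a plant anthraquinone, given from day 0 to day 3. One line was used in every condition, and rhein was tested at 1 dose.

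Each condition had 1 deposited list of peaks, without read numbers, so depth is unknown and no test between conditions was possible. Each list is 1 sample, and intervals below are 95% Wilson intervals that cover counting error alone. Those for shares of peaks treat the peaks of a gene as independent, so they are too narrow. A gene without a peak may be unmethylated, poorly expressed or too thinly covered, which these lists cannot tell apart. Each library is from bulk cells, so fewer cells carrying a mark and less marked RNA per cell cannot be told apart either. The lists hold no expression values, and the adipocyte genes Pparg, Cebpa, Fabp4 and Adipoq had no peak in any of the 5 lists, so the labelled stages could not be checked against markers. The only measure per peak was a column headed as a log2 fold change. It ran from 4.19 to 735 in DMSO Pre and is used here as a score, higher for a more certain peak, because its lowest values match an adjusted p-value of about 0.05 read on a negative log2 scale.

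The rhein MCE and rhein Diff lists were nearly one list. Of 3069 and 3071 peaks, 3067 had identical spans, and all 67 peaks in member genes were at the same positions in both, with a median difference in score of 0.00439. The largest difference was 15.0, and the 4 member peaks that differed most were all in Hnrnpa2b1. The lists are therefore counted as 1 sample, written rhein, which leaves 4 distinct lists. The labels give this list to both stages, so which stage it stands for cannot be told. Stage and treatment thus cannot be told apart in any comparison of rhein with a DMSO list below. Scores written as rhein are those of the rhein MCE list, and both are given for Hnrnpa2b1. Series of 4 values below follow the order Pre, MCE and Diff under DMSO, then rhein.

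In mammalian cells m6A is written on nascent RNA by a METTL3-METTL14 core with its partners, mostly within a short motif that contains GGAC or a close variant. SR proteins and hnRNPs are the large families that favour or repress the use of exons, and many of them control their own messages through unproductive exons or retained introns, whose transcripts are degraded by nonsense-mediated decay. Decay and silencing factors shorten poly(A) tails, remove messages or link microRNAs to repression. Translation factors load ribosomes on capped messages.

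The following sequences come from the GENCODE M21 transcripts and are written 5′ to 3′ on the gene's strand, with GGAC in capitals and coordinates in mm10. They show a selection of the peaks that recurred between lists in coding exons of the decay factor Zfp36l2, the silencing scaffolds Tnrc6a, Tnrc6b and Tnrc6c, and the translation factor Eif3a.
Zfp36l2, chr17:84186231-84186280, minus strand, shared by DMSO MCE and rhein: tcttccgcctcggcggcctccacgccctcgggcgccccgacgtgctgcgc
Zfp36l2, chr17:84186406-84186580, minus strand, shared by DMSO Pre, DMSO MCE and rhein: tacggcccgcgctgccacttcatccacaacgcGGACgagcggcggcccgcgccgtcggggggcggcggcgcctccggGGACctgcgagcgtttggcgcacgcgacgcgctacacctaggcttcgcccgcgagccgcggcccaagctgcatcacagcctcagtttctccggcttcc
Tnrc6a, chr7:123171182-123171331, plus strand, the middle of the bases shared by all 4 lists: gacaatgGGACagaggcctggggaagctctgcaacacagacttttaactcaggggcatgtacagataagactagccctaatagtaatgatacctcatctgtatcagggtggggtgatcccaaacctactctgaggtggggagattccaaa
Tnrc6b, chr15:80880259-80880408, plus strand, shared by all 4 lists: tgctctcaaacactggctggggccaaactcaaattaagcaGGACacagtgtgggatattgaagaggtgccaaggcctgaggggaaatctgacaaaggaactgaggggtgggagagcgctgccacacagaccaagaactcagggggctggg
Tnrc6c, chr11:117722984-117723058, plus strand, the rhein peak of a site in 3 lists: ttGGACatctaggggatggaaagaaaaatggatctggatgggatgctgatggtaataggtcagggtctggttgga
Eif3a, chr19:60766544-60766718, minus strand, shared by all 4 lists: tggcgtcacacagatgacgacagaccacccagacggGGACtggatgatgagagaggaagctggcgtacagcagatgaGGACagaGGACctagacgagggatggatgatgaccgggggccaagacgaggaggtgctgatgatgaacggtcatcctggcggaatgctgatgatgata

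A second set shows peaks in the coding sequence of the writer-complex partners, where GGAC was most frequent, each peak printed whole.
Zc3h13, chr14:75331864-75332138, plus strand, DMSO MCE: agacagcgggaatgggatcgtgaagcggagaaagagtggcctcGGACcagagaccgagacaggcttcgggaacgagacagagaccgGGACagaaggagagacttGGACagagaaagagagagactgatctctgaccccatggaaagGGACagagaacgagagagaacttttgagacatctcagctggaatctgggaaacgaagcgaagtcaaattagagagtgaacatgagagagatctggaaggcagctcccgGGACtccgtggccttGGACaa
Rbm15, chr3:107331126-107331300, minus strand, rhein: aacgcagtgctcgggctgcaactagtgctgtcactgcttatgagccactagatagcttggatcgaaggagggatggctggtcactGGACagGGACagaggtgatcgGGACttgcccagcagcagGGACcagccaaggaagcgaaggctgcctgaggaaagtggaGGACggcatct
Rbm15b, chr9:106885122-106885321, minus strand, rhein: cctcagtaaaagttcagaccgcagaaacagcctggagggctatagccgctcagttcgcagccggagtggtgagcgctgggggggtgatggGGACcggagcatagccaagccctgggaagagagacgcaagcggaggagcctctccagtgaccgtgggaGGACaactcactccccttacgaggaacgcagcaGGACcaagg

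A further set shows peaks of high score without GGAC, peaks outside the coding sequence, and bases before the stop codon from the recurrent Eif4g1 site that spans it. The Hnrnpm stretch runs from an annotated retained intron into an exon, and the Tra2b stretch lies in an exon of transcripts annotated for nonsense-mediated decay. The Srrm2, Hnrnpul1 and Hnrnpd stretches are coding peaks of high score, and 30 bases each are given of the recurrent sites of Elavl1 and Eif4g1.
Hnrnpm, chr17:33658895-33658994, minus strand, shared by the 3 DMSO lists: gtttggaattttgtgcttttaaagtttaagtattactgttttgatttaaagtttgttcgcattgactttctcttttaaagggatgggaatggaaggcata
Tra2b, chr16:22259087-22259116, minus strand, from the bases shared by DMSO Pre and DMSO Diff: tagaatattgagcaatttgtgtgaagtggg
Srrm2, chr17:23821631-23821680, plus strand, DMSO Pre: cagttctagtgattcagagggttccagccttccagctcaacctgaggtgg
Hnrnpul1, chr7:25754479-25754528, minus strand, DMSO Diff: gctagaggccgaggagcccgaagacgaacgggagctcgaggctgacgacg
Hnrnpd, chr5:99978417-99978466, minus strand, shared by DMSO MCE and rhein: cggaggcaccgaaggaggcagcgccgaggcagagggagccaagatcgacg
Elavl1, chr8:4289264-4289293, minus strand, from the bases shared by all 4 lists: aaccagtcactctGGACggtggtgGGACtg
Eif4g1, chr16:20692394-20692423, plus strand, from the bases shared by all 4 lists: ttcgtgaggctgaGGACgaggagtctgatc

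A peak was found in 29, 37, 30 and 32 of the 59 members. The shares were 49.2% (36.8 to 61.6), 62.7% (50 to 73.9), 50.8% (38.4 to 63.2) and 54.2% (41.7 to 66.3), and these intervals overlap. Of all protein-coding genes, 6.93%, 12.5%, 6.76% and 7.42% had a peak, with 7.43% in the second rhein list and 16.6% in any list. The members were named with earlier results of these data in view. Most are broadly expressed, and the part that expression and choice have in their higher shares was not tested. Their longest coding transcripts were also longer, with a median of 4343 bases against 2680 bases over all coding genes and 3647 bases over coding genes with a peak.

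DMSO MCE was by far the longest list, with 5128 peaks against 2824 in DMSO Pre. When every list was cut to its 2824 best peaks, 29, 29, 30 and 32 members had a peak, beside 6.93%, 7.61%, 6.53% and 6.96% of all coding genes. The members in DMSO MCE thus no longer outnumbered those of the other lists. A stricter score, above 9.97, left 17, 16, 12 and 12 members in the same order, beside 2.67%, 2.79%, 2.39% and 2.59% of coding genes. It would equal an adjusted p-value below 0.001 if the score is read as above.

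**Figure D1:**
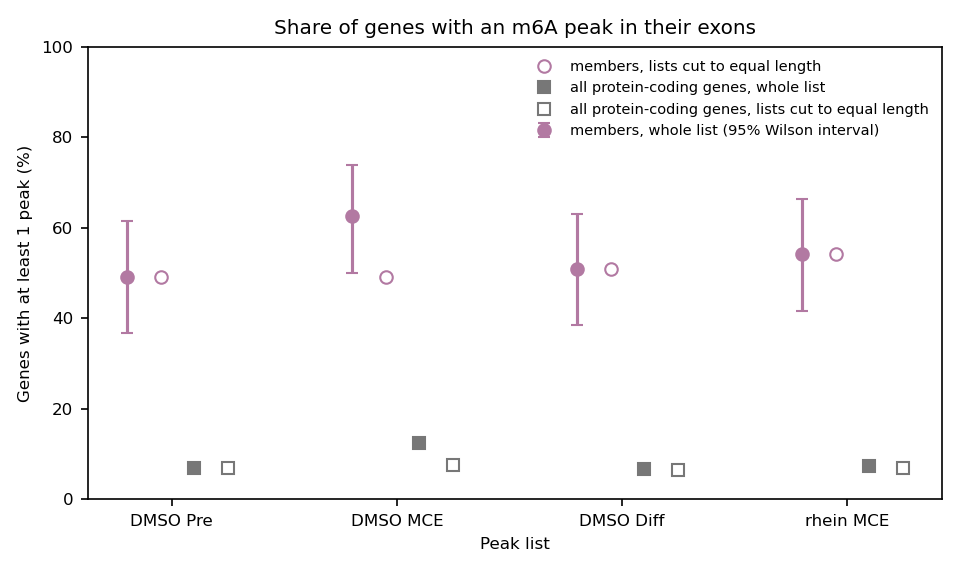
Share of genes with at least 1 m6A peak in their exons (y axis, percent) for the 4 distinct peak lists. Filled circles with bars are the 59 members with 95% Wilson intervals, open circles the members in lists cut to 2824 peaks, and squares all protein-coding genes before (filled) and after (open) the same cut. The members lie between 49.2% and 62.7% in whole lists and between 49.2% and 54.2% at equal length.

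Read against genes that had a peak somewhere, the members were in more lists. Of the 50 members with a peak, 58.0%, 74.0%, 60.0% and 64.0% had one in the 4 lists, where the shares over the 3641 coding genes were 41.8%, 75.6%, 40.8% and 44.7%. In all, 14 members (28.0% of those with a peak) were in all 4 lists, against 15.7% of coding genes with a peak, and 13 (26.0%) were in 1 list, against 44.5%. The DMSO MCE share was the one that did not exceed that of coding genes. As the members were named with earlier results of these data in view, the part of that choice here was not tested. Nor was that of transcript length, with a median of 4139 bases in members with a peak against 3647 bases in coding genes with a peak.

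The 14 members in every list were Srsf5, Srrm2, Hnrnpm, Mbnl2, Ddx5, Zc3h13, Elavl1, Zfp36l2, Smg1, Tnrc6a, Tnrc6b, Tnrc6c, Eif4g1 and Eif3a. At the other end, 9 members had no peak in any list. These were Srsf7, Ptbp1, Cbll1, Igf2bp1, Pum2, Cnot3, Xrn1, Ago1 and Eif4g3, and their median transcript length of 6311 bases was above that of the members with a peak, 4139 bases. Peaks in DMSO Pre alone were found for Hnrnpa1, Mbnl1 and Fxr2, in DMSO MCE alone for Srsf4, Srsf11, Srrm1, Hnrnpc and Qk, in DMSO Diff alone for Ago2, and in rhein alone for Srsf2, Srsf3, Igf2bp3 and Eif4g2.

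**Figure D2:**
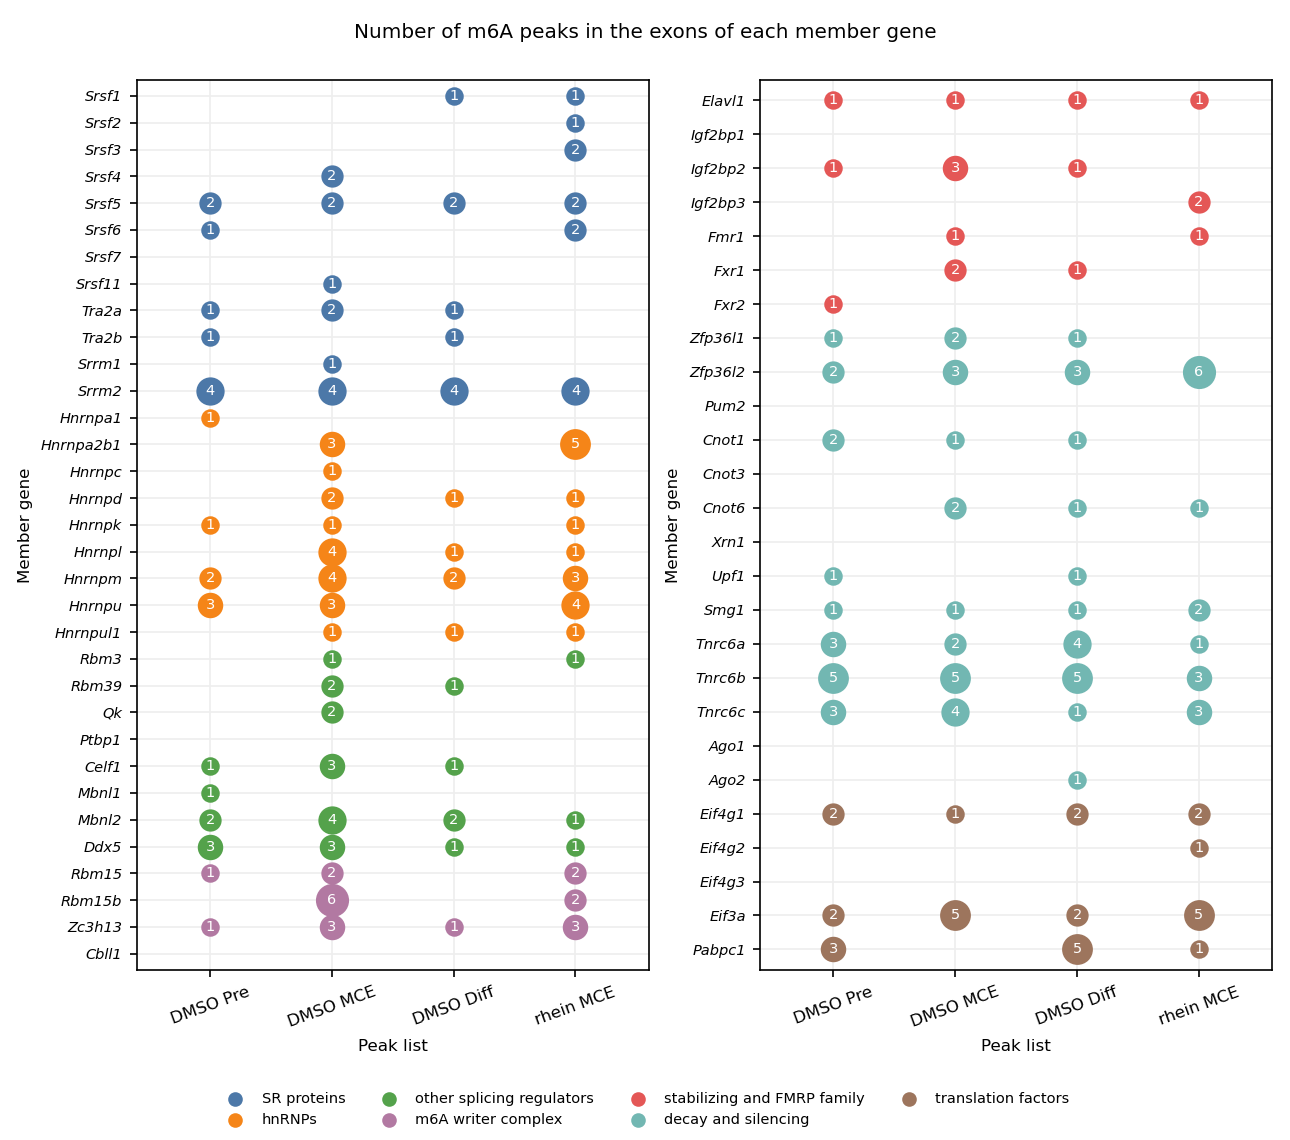
Number of peaks in the exons of each member gene (rows, coloured by class) in the 4 distinct peak lists (columns). Circles carry the number of peaks, larger circles mean more, and an empty cell means no listed peak. Tnrc6b holds 3 to 5 peaks in every list and Zfp36l2 holds 2 to 6.

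Members carried 53, 90, 51 and 67 peaks, or 1.88%, 1.76%, 1.73% and 2.18% of each list. A member with a peak held 1.83, 2.43, 1.70 and 2.09 peaks, and a coding gene with a peak 1.68, 1.75, 1.78 and 1.71. The median member peak stood at 43.1%, 36.4%, 43.3% and 47.5% of the ranking from the best peak down, and 10 of 53, 13 of 90, 5 of 51 and 7 of 67 member peaks were in the best 10% of their list.

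Between DMSO and rhein at MCE, 25 members had a peak in both lists, which was 67.6% of the 37 in DMSO and 78.1% of the 32 in rhein. For all coding genes the shares were 45.7% and 77.3%. In the Diff lists 20 members were shared, 66.7% of the 30 in DMSO and 62.5% of the 32 in rhein, against 59.8% and 54.4% for coding genes. Since the rhein list was the same at both stages, the DMSO lists alone set the difference between these pairs.

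SR proteins and relatives had a peak in 11 of 12 members, with 9, 12, 9 and 12 peaks. Srrm2, a scaffold protein of the nuclear speckles where splicing factors gather, had 4 peaks in each list. Its peak of highest score, 70.9, was the best member peak of DMSO Pre, covered 50 bases of exon 11 of 15 at chr17:23821631-23821680, and had no counterpart in another list. Exon 11 is 6569 bases long, and DMSO MCE and DMSO Diff had 1 peak each elsewhere in it. Srrm2 peaks at the 5′ end of the gene linked DMSO MCE, DMSO Diff and rhein, and a 3′ UTR site at chr17:23824391-23824590 joined DMSO Pre and DMSO Diff.

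Srsf5, which promotes exon inclusion, had 2 peaks in every list. A chain of overlapping peaks at chr12:80949145-80949694, around exon 7 of 8, ran through all 4 lists with 25 bases in common, and its best score was 10.4 in DMSO Pre. Srsf1, the founding SR protein, had 1 peak in its 3′ UTR in DMSO Diff, at a score of 15.3, and in rhein, at 17.9, with 200 bases in common. Srsf2 and Srsf3 had peaks in rhein alone, that of Srsf2 at chr11:116850801-116851000 with a score of 7.51, and those of Srsf3 at chr17:29032628-29032852 with 8.33 and chr17:29041675-29041849 with 8.19. Srsf4 had 2 peaks and Srsf11 and Srrm1 had 1 each in DMSO MCE alone, at scores of 7.90 or lower. Srsf6 had 1, 0, 0 and 2 peaks, and Srsf7 had none.

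Tra2a and Tra2b, paralogs that activate weak exons, carried peaks in exon 2 of transcripts annotated for nonsense-mediated decay, outside every protein-coding transcript. For Tra2b this exon has 276 bases and held a peak at chr16:22259064-22259138 in DMSO Pre with a score of 32.5, inside a DMSO Diff peak at chr16:22258964-22259163 with a score of 6.78. For Tra2a the exon has 306 bases. It held a peak at chr6:49252880-49252954 in DMSO MCE with a score of 10.4, and a peak at chr6:49252955-49253029 in DMSO Diff with a score of 17.1. The Tra2a peaks lay side by side and shared no base. Neither exon had a peak in rhein. Tra2a also had a peak of higher score, 30.4 in DMSO Pre, over exons near the end of its coding sequence.

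The hnRNPs, which coat nascent RNA and often repress exons, had a peak in all 9 members. Their peaks numbered 7, 19, 5 and 16, more in DMSO MCE and rhein than in the other lists. Each number comes from 1 sample and the lists differ in length, so the difference was not tested. Hnrnpm had 2, 4, 2 and 3 peaks, Hnrnpu 3, 3, 0 and 4, and Hnrnpa2b1, a proposed reader of m6A, 0, 3, 0 and 5.

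Hnrnpm, a splicing regulator of GU-rich sequences, had the site shared by the 3 DMSO lists that is printed above. Its scores were 36.9 in DMSO Pre, 27.7 in DMSO MCE and 13.6 in DMSO Diff, and rhein had none there. Hnrnpa1 had 1 peak, at chr15:103245838-103245887 in DMSO Pre with a score of 41.0, in the long exon 11 of a transcript annotated for nonsense-mediated decay. Hnrnpul1 had the second best member peak of DMSO Diff, with a score of 41.2 in exon 1. Hnrnpd, also known as the AU-rich element binder AUF1, had the second best member peak of rhein, with a score of 34.4 in exon 1, inside a DMSO MCE peak with a score of 13.1.

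Hnrnpu, a chromatin-associated scaffold that also regulates splicing, had recurrent peaks in its 5′ part and just after the stop codon, and none in DMSO Diff. The site at chr1:178336339-178337235, partly in annotated retained introns, scored 7.50 in DMSO Pre, 19.1 in DMSO MCE and 5.47 in rhein. Hnrnpa2b1 had a 5′ UTR site at chr6:51469736-51469885 with a score of 11.8 in DMSO MCE, 6.56 in rhein MCE and 12.3 in rhein Diff, so its order against DMSO depends on the rhein list used. Of its rhein peaks, 2 lay wholly in sequence annotated as retained intron. That at chr6:51466064-51466113 scored 18.7 in rhein MCE and 7.30 in rhein Diff, and that at chr6:51464638-51464687 scored 6.18 and 21.1.

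Hnrnpc and Hnrnpl differ in RNA target, U-tracts for the first and CA repeats for the second. Hnrnpc had 1 peak, in DMSO MCE, at a score of 7.78. Hnrnpl had 0, 4, 1 and 1 peaks, the highest at a score of 12.2. The rhein peak of Hnrnpk, which binds C-rich RNA, spanned chr13:58396259-58402566 over 2635 annotated exonic bases, so its true extent is uncertain.

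A recurring feature of these families was a peak with bases outside the exons of every protein-coding transcript of the gene, most often in retained introns or exons of decay-prone transcripts, with an Eif3a peak in rhein as an exception. Of the SR peaks in the 4 lists 19 of 42 had such bases (45.2%, 31.2 to 60.1), and of the hnRNP peaks 15 of 47 (31.9%, 20.4 to 46.2). None of the 73 peaks in decay and silencing factors did (upper limit 5%), nor did the 21 in writer-complex partners (upper limit 15.5%). The share was 2 of 30 in the other splicing regulators, 1 of 17 in the stabilizing and FMRP-family genes and 4 of 31 in the translation factors, and over all coding genes it was 6.65% of 12790 peaks.

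The annotation offered different amounts of such sequence. The values here are means over peaks, each peak weighing the same whatever its length. For SR peaks, a mean of 41.2% of the gene's annotated exon bases lay outside protein-coding transcripts. The mean for the bases of the peak itself was 29.5%. For the hnRNP peaks these means were 40.3% and 17.9%, for the decay peaks 21.1% and 0%, and over peaks of all coding genes 18.7% and 3.08%. Peaks that lay wholly outside numbered 8 for SR genes and 3 for hnRNPs, and none for the other classes. The SR peaks were those of Srsf6, Tra2a, Tra2b and Srrm2, and the hnRNP peaks those of Hnrnpa1 and Hnrnpa2b1. Whether these peaks lay on unspliced RNA or on spliced decay-prone transcripts cannot be told from the lists.

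**Figure D3:**
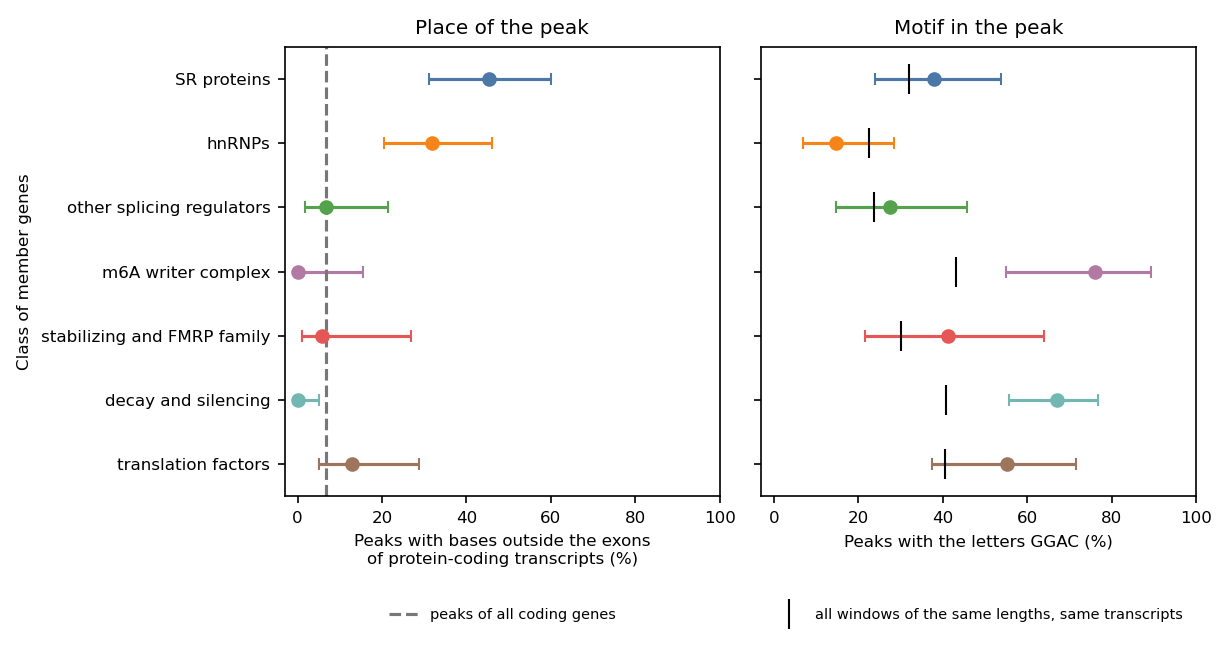
Left, percent of peaks with bases outside the exons of protein-coding transcripts, and right, percent of peaks that contain GGAC, for each class of member genes over the 4 distinct lists. Points are shares with 95% Wilson intervals, the dashed line is the share over peaks of all coding genes (6.65%), and black ticks are the share of all windows of the same lengths in the same transcripts. SR and hnRNP peaks lie furthest above the dashed line, those of translation factors (12.9%) lie above it by less, and those of other splicing regulators (6.67%) lie on it. GGAC exceeds its tick most in the writer-complex and decay classes.

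Among the other splicing regulators and RNA-binding proteins, 7 of 8 members had a peak, with 7, 15, 5 and 3 peaks over the lists. Mbnl2, a muscleblind protein that switches splicing during differentiation, had 2, 4, 2 and 1 peaks. Its 5′ UTR site at chr14:120324951-120325225 was in all 4 lists, with scores of 11.1 in DMSO Pre, 6.84 in DMSO MCE, 8.33 for the higher of a DMSO Diff pair and 9.27 in rhein. Ddx5, an RNA helicase, had 3, 3, 1 and 1 peaks, and those at the end of the coding sequence were in DMSO Pre alone, where the highest scored 12.9. Celf1, which binds GU-rich elements, had 1, 3, 1 and 0 peaks, all late in a last exon of 6260 bases. Mbnl1, a paralog of Mbnl2, had 1 peak, in DMSO Pre, at chr3:60629106-60629155 in the 3′ UTR with a score of 9.28. Qk had 2 peaks in DMSO MCE alone, Rbm39 had 0, 2, 1 and 0, and Rbm3, a cold-inducible protein, had 1 in DMSO MCE and 1 in rhein.

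The partners of the m6A writer had peaks in 3 of 4 members, with 2, 11, 1 and 7 peaks. All 21 peaks had their midpoint in the coding sequence (lower limit 84.5%), at 11 sites in 3 genes, where 65.1% of the positions on offer in the same transcripts lay. A site found in several lists counts once for each, here and in the other shares by class, so these intervals are too narrow. Rbm15 and Rbm15b recruit the writer to its targets. Rbm15 had 1, 2, 0 and 2 peaks, and those at chr3:107331076-107331325 in DMSO Pre, DMSO MCE and rhein overlapped. Rbm15b has a coding transcript of 1 exon and had 0, 6, 0 and 2 peaks, the highest with a score of 15.0 in rhein.

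Zc3h13, which anchors the writer complex in the nucleus, had 1, 3, 1 and 3 peaks. The exon 15 site printed above had scores of 7.38 in DMSO Pre, 9.72 in DMSO MCE and 8.32 in rhein. An exon 10 site at chr14:75323271-75323495 had no peak in DMSO Pre, and scored 9.55, 7.81 and 6.47 in the other lists. Both exons are long for internal exons, with 513 and 651 bases. Cbll1, also named Hakai, had no peak.

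The stabilizing and FMRP-family genes had a peak in 6 of 7 members, with 3, 7, 3 and 4 peaks. Elavl1, also named HuR, which protects AU-rich messages, had 1 peak per list, and it was the same site each time. Scores at chr8:4289132-4289356, in the 3′ UTR, were 29.7, 10.1, 10.3 and 8.72 in the 4 lists. The spans in DMSO MCE and DMSO Diff were identical, and all 4 lists had 200 bases in common. The midpoint lay 346 to 359 bases after the end of the coding sequence, early in a last exon of 4543 bases.

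Igf2bp2 and Igf2bp3, readers that stabilize methylated messages, split between the lists. Igf2bp2 had 1, 3, 1 and 0 peaks, whose recurrent site lay in the first exon, and Igf2bp3 had 0, 0, 0 and 2, in exons 9 and 10 of 15. The Igf2bp3 peaks were at chr6:49104262-49105581 with a score of 13.99 and chr6:49105607-49105681 with 6.80, and Igf2bp1 had none. Fmr1, a repressor of translation, had 1 peak in DMSO MCE and 1 in rhein, at different places. Its paralog Fxr1 had 2 in DMSO MCE and 1 in DMSO Diff, and Fxr2 had 1 in DMSO Pre, in the 3′ UTR at chr11:69653164-69653213, at a score of 5.18.

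Decay and silencing factors had a peak in 10 of 14 members and held 18, 20, 19 and 16 peaks. Zfp36l2, which binds AU-rich elements and recruits a deadenylase, had 2, 3, 3 and 6 peaks. The 50-base peak at chr17:84186231-84186280 scored 189.7 in rhein, the highest of any member peak and within the best 0.130% of that list. At the identical span in DMSO MCE the score was 8.49, and the other lists had no peak there. The stretch holds no GGAC.

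Of the other Zfp36l2 sites, 3 were in 1 list, at chr17:84186631-84186705 and chr17:84186806-84186855 in rhein and at chr17:84187081-84187130 in DMSO Diff. The site across the stop codon, at chr17:84185481-84185830, was in all 4 lists with 250 bases in common, and its scores were 7.55, 39.7, 9.41 and 5.63 in the 4 lists. The coding site at chr17:84186381-84186605 scored 27.6 in DMSO Pre, 18.1 in DMSO MCE and 22.4 in rhein, and it was missing from DMSO Diff. DMSO Diff had its best member peak upstream of it, at chr17:84186956-84187055 with a score of 50.3, which shared 25 bases with a rhein peak of score 22.5. Zfp36l1, its paralog, had 1, 2, 1 and 0 peaks, and a 3′ UTR site at chr12:80108679-80108853 was in the 3 DMSO lists with scores of 25.9, 12.7 and 9.18.

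Tnrc6a, Tnrc6b and Tnrc6c encode the GW182-family scaffolds that tie Argonaute to deadenylases. They had 3, 2, 4 and 1 peaks, 5, 5, 5 and 3 peaks, and 3, 4, 1 and 3 peaks in the 4 lists. Of these 39 peaks, 32 lay in a single long coding exon of each gene. This was exon 6 of 24 with 2583 bases in Tnrc6a (7 of 10 peaks), exon 8 of 25 with 2340 bases in Tnrc6b (14 of 18) and exon 5 of 22 with 2601 bases in Tnrc6c (11 of 11). Although the last exon of Tnrc6b has 11997 bases, its 4 peaks there sat close to the stop codon, with midpoints 57 to 207 bases after the coding sequence.

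Positions in these exons are given from the end of the coding sequence, negative before it. Midpoints of the sites found in all 4 lists ran from -3445 to -3382 in Tnrc6a, from -3420 to -3370 and from -3045 to -2895 in Tnrc6b, and from -3641 to -3516 in Tnrc6c. In Tnrc6c the 4 lists were chained by overlap and shared no base. The highest scores at these sites were 17.8 for Tnrc6a in DMSO MCE, 9.09 for Tnrc6b in rhein and 9.95 for Tnrc6c in DMSO Diff. The best Tnrc6a peak, 32.6, was a separate 50-base peak in DMSO Diff.

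**Figure D4:**
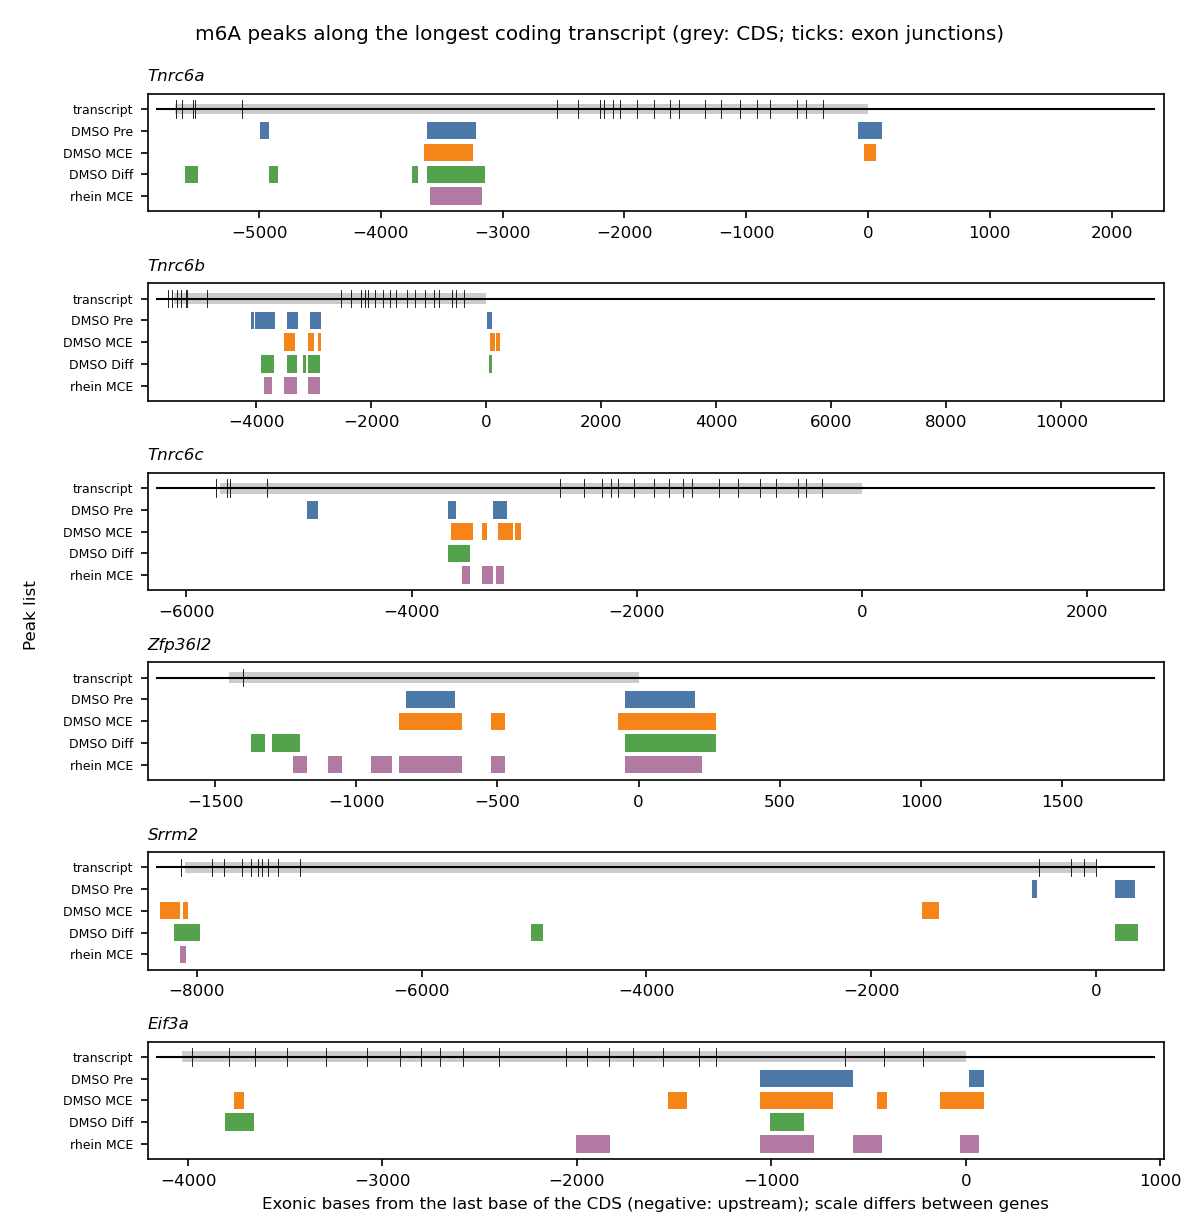
Peaks along the longest coding transcript of 6 members, by exonic distance in bases from the end of the coding sequence (x axis), with the transcript above (grey, coding sequence, ticks, exon junctions) and 1 row for each of the 4 distinct lists. Of the 83 peaks of these genes 75 are drawn, and the rest, 7 in Srrm2 and 1 in Eif3a, end outside the exons of that transcript. Peaks of the 3 Tnrc6 genes gather in 1 long coding exon, and those of Zfp36l2 in the coding sequence and at its end.

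Smg1, the kinase that starts nonsense-mediated decay, had 1, 1, 1 and 2 peaks, all at 1 site in the 3′ UTR, chr7:118134858-118135307. Scores there were 7.70, 8.27, 11.3 and 17.3 in the 4 lists, where the rhein value is the higher of a pair. Upf1, the helicase of that pathway, had 1 peak in DMSO Pre and 1 in DMSO Diff at overlapping places of the 3′ UTR, at scores of 5.57 and 6.78. Cnot1 and Cnot6, the scaffold and a catalytic subunit of the CCR4-NOT deadenylase, had 2, 1, 1 and 0 and 0, 2, 1 and 1 peaks. The Cnot6 peak in rhein lay in the 5′ UTR and scored 33.4, behind only Zfp36l2 and Hnrnpd among the member peaks of that list. The overlapping peak in DMSO MCE scored 8.38. Ago2, the slicing Argonaute, had 1 peak, in DMSO Diff, at chr15:73105544-73105593 in the 3′ UTR with a score of 17.7. Pum2, Cnot3, Xrn1 and Ago1 had none.

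Translation factors had a peak in 4 of 5 members, with 7, 6, 9 and 9 peaks. Eif3a, the largest subunit of the factor that readies the small ribosomal subunit, had 2, 5, 2 and 5 peaks. Its exon 19 site was in all 4 lists, with scores of 21.6, 43.4, 15.3 and 14.1 in the 4 lists, and the DMSO MCE peak was the best member peak of its list. A site at the stop codon, chr19:60761992-60762216, was in DMSO Pre, DMSO MCE and rhein with scores of 13.6, 8.99 and 8.24.

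Eif4g1, the scaffold of the cap-binding complex, had 2, 1, 2 and 2 peaks. The site at the stop codon began at the same base, chr16:20692347, in all 4 lists, and scored 8.09, 26.2, 5.21 and 8.69 in the 4 lists. Pabpc1, the poly(A)-binding protein, had 3, 0, 5 and 1 peaks and was the only member in DMSO Pre, DMSO Diff and rhein but not in DMSO MCE, the longest list. Its best peak, at chr15:36602863-36603572 in DMSO Diff, scored 32.9. Eif4g2, a relative of Eif4g1 that works without the cap-binding protein, had 1 peak, in rhein, at chr7:111078012-111078061 with a score of 7.28, and Eif4g3 had none.

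**Figure D5:**
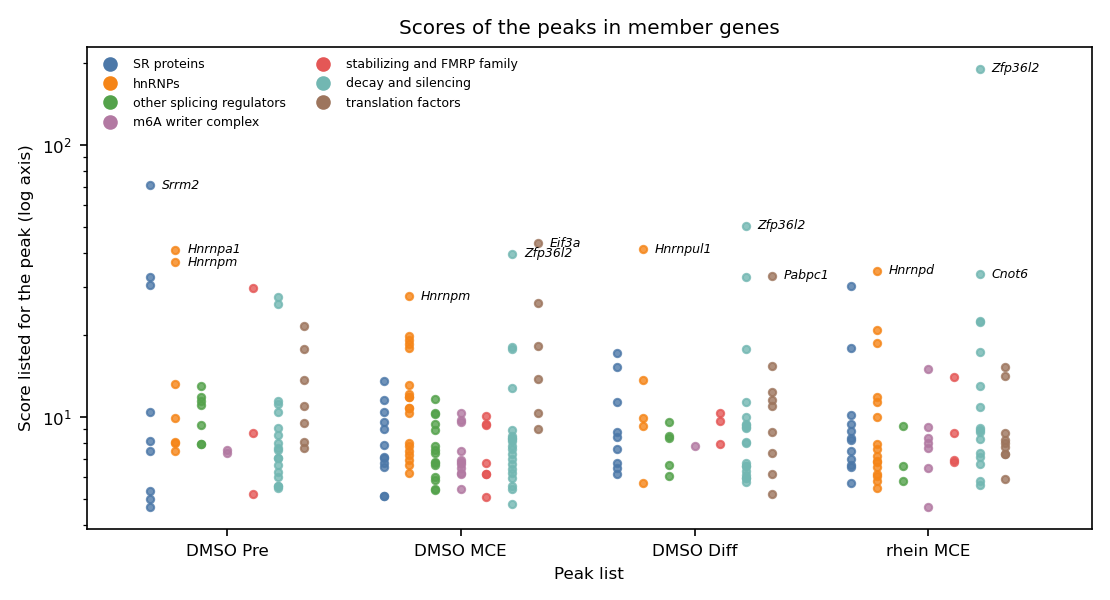
Score of every member peak (y axis, log scale) in the 4 distinct lists, coloured by class, with the 3 best peaks of each list named. Most peaks lie near the foot of the scale, with medians between 7.87 and 8.79, and the Zfp36l2 peak in rhein at 189.7 stands apart.

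Merging overlapping peaks over the 4 lists gave 158 sites in members, of which 103 (65.2%) were in 1 list, 29 in 2, 15 in 3 and 11 in 4. The share in at least 2 lists was 51.4% of 35 sites in decay factors, 47.1% of 17 in translation factors and 45.5% of 11 in writer partners. It was 31.6% of 19 in other splicing regulators, 25.7% of 35 in hnRNPs and 24.1% of 29 in SR genes. Stabilizing and FMRP-family genes had the lowest share, 16.7% of 12. Sites in all 4 lists belonged to Srsf5, Mbnl2, Elavl1, Zfp36l2, Smg1, Tnrc6a, Tnrc6b with 2, Tnrc6c, Eif4g1 and Eif3a. The decay class held 6 of these 11 sites, and hnRNPs and writer partners none. Sites were merged for members alone, so no share over all coding genes stands beside these, and the differences between classes were not tested. Counted as peaks, 158 member peaks were shared with another list and 103 were in 1 list, beside 8112 and 5853 over all peaks.

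Peak by peak, the shares of member peaks found again in another list are given beside those of all peaks. Of the 53 member peaks in DMSO Pre 49.1% (36.1 to 62.1) overlapped a DMSO MCE peak by at least 1 base, beside 45.0% of all peaks. Of the 51 in DMSO Diff 49.0% (35.9 to 62.3) overlapped DMSO Pre, beside 36.3%. Of the 90 in DMSO MCE 40.0% (30.5 to 50.3) overlapped rhein, beside 32.2%. Of the 67 in rhein 46.3% (34.9 to 58.1) overlapped DMSO MCE, beside 53.5%, and 28.4% (19.0 to 40.1) overlapped DMSO Diff, beside 37.8%.

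Where a peak lay in 1 protein-coding transcript, its midpoint was assigned to a part of it. The coding sequence held 24 of 43, 44 of 78, 28 of 44 and 33 of 53 member peaks. These shares were 55.8% (41.1 to 69.6), 56.4% (45.4 to 66.9), 63.6% (48.9 to 76.2) and 62.3% (48.8 to 74.1). Uniform placement on the same transcripts would give 57.5%, 52.9%, 55.5% and 54.4%, all within these intervals. The 3′ UTR held 37.2%, 33.3%, 29.5% and 24.5% of member peaks, with 36.8%, 40.7%, 38.5% and 38.3% on offer. The 5′ UTR held 6.98%, 10.3%, 6.82% and 13.2%. Over all peaks the coding sequence held 55.5%, 54.1%, 54.9% and 52.6%, and the 3′ UTR 39.0%, 38.6%, 39.1% and 39.9%. The rhein member share in the 3′ UTR, 24.5% (14.9 to 37.6), was below the share on offer and that of all peaks. Several of these peaks lie in the same gene, so that interval is too narrow and the difference was not tested.

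Within 200 bases of the end of the coding sequence, where m6A is known to gather, lay 16.3% (8.12 to 30), 19.2% (12.0 to 29.3), 6.82% (2.35 to 18.2) and 13.2% (6.55 to 24.8) of member peaks. The shares over all peaks were 21.9%, 25.1%, 23.7% and 22.9%. Uniform placement of the member peaks would give 8.56%, 10.0%, 8.31% and 10.4%, and that of all peaks 10.9%, 12.3%, 11.5% and 12.5%. In DMSO Diff the member share lay below that of all peaks by more than its interval. Several of these member peaks lie in the same gene, so that interval is too narrow and the difference was not tested. Over the 4 lists, 9 of 32 hnRNP peaks (28.1%, 15.6 to 45.4) lay there, with 13.2% on offer. For decay factors the share was 12.3%, with 6.13% on offer. Translation factors had 7 of 27 peaks there (25.9%), with 9.62% on offer, all at the stop-codon sites of Eif4g1 and Eif3a. The other classes lay below the share on offer. SR genes had 9.09% against 14.2%, and other splicing regulators 7.41% against 9.37%. Writer partners had 4.76% against 7.2%, and stabilizing and FMRP-family genes 12.5% against 13.98%. Differences between classes were not tested. Long internal exons, of at least 400 bases, held 30.2%, 20.5%, 34.1% and 26.4% of member peaks, against 13.1%, 11.6%, 14.3% and 11% on offer. Over all peaks these exons held 19.5%, 16.6%, 16.5% and 13.9%, and the Tnrc6 genes gave 32 of the member peaks there. At the stricter score the member shares were 29.4%, 17.4%, 18.2% and 5.56%, with 10.4%, 16.4%, 11.3% and 8.82% on offer, so the rhein share then lay below the share on offer and that of DMSO MCE close to it.

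The letters GGAC, on the gene's strand, stood in 27 of 50, 33 of 88, 25 of 49 and 31 of 60 member peaks that lay in 1 transcript. These shares were 54% (40.4 to 67.0), 37.5% (28.1 to 47.9), 51.0% (37.5 to 64.4) and 51.7% (39.3 to 63.8). All windows of the same lengths in the same transcripts held them in 39.3%, 30.2%, 35.0% and 34.0% of cases. Over all peaks the shares were 53.2%, 52.9%, 48.2% and 52.2%, with 40.8%, 40.4%, 38.8% and 41.4% of windows. In DMSO MCE the member share lay below that of all peaks by more than its interval, and the share of member windows was also lower. Several of these peaks lie in the same gene, so the interval is too narrow and the difference was not tested.

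By class, taken over the 4 lists, the GGAC share ranged widely. Writer partners had GGAC in 16 of 21 peaks (76.2%, 54.9 to 89.4) against 43.2% of windows, and decay factors in 49 of 73 (67.1%, 55.7 to 76.8) against 40.8%. Translation factors had it in 16 of 29 (55.2%, 37.5 to 71.6) against 40.7%, SR genes in 14 of 37 (37.8%, 24.1 to 53.9) against 32%, and hnRNPs in 6 of 41 (14.6%, 6.88 to 28.4) against 22.6%. Stabilizing and FMRP-family genes had it in 7 of 17 (41.2%, 21.6 to 64.0) against 30.1%. Other splicing regulators had it in 8 of 29 (27.6%, 14.7 to 45.7) against 23.7%. With a 100-base window for each peak, SR genes had 27.0% against 29.7%, the reverse order, and no other class changed order. These peaks repeat sites between lists, with 11 sites behind the writer share, 35 behind that of the decay factors and 35 behind that of the hnRNPs, so the intervals are too narrow and the differences between classes were not tested. Member peaks shared with another list held it in 58.2% of 153 cases (50.2 to 65.7), with 40.0% of windows, and member peaks of 1 list in 28.7% of 94 (20.6 to 38.6), with 24% of windows. Shared member peaks were also longer, with a median of 150 against 75 exonic bases. Over all peaks, GGAC stood in 59.3% of shared peaks, with 44.9% of windows, and in 41.5% of peaks of 1 list, with 33.9% of windows.

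Of the other genes of the same pathways, 42 of 76 (55.3%) had a peak in at least 1 list, beside 16.6% of all protein-coding genes. These genes too were named with earlier results of these data in view, and the part of that choice was not tested. Further hnRNPs had 11 of 14, among them Hnrnpa0 with 4, 2, 4 and 4 peaks and Hnrnph1 with 2, 1, 1 and 4. Core spliceosome genes had 5 of 6 and translation genes 13 of 20, among them Eif4b with 8 peaks in DMSO Diff, 2 in rhein and none in DMSO Pre or DMSO MCE. Further decay and silencing genes had 10 of 29, and the rest of the m6A writer 1 of 4, which was Virma with 3 peaks in DMSO MCE.

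The gene symbol printed in the lists was not always the gene that held the peak. It named the member for 45 of 53, 75 of 90, 44 of 51 and 63 of 67 member peaks. The Elavl1 site was listed as Timm44 in all 4 lists, the Eif4g1 stop-codon site as Fam131a, and Hnrnpk peaks in DMSO Pre and DMSO MCE as Mir7-1. Conversely, 2, 4, 5 and 2 peaks listed under a member lay elsewhere. Peaks listed as Hnrnpul1 lay in Axl, and a peak listed as Tra2b lay on the other strand in Gm25810 in DMSO Pre, DMSO MCE and rhein.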

How the data were processed

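MeRIP-seq gave 10 libraries of 3T3-L1 cells. According to the methods of the study, reads were trimmed with Trim Galore and aligned to mm10 with HISAT2, duplicates were removed with Picard (2.23.5), reads of low mapping quality with SAMtools (1.9), peaks were called with exomePeak2 and annotated with ChIPseeker (1.26). The authors deposited 1 peak list per condition, and which libraries entered each is not given in the sources used here. The deposited column headed log2 fold change was used as a score. Peaks were placed on GENCODE M21, on a transcript with both ends in exons or else on the union of the exons of a gene, in Python (3.11.15). This placed 99.9% of every list, and 97.3% to 98.2% of the placed peaks covered an exonic length divisible by 25 bases. Members, classes and the further gene lists were chosen with earlier results of these data known, and all named lists are described by counts. Coordinates and scores are given for members with a peak in every list, the 3 members with the most peaks, the 3 best member peaks of each list and members in rhein, DMSO Pre or DMSO Diff alone. Further sites were chosen after their values were seen. The placement was tested on simulated peaks. Intervals are Wilson intervals (SciPy 1.17.1).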

Additional observations from a re-analysis of the deposited data

Results flagged for a closer look

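The step from DMSO to rhein went opposite ways at the 2 stages for several counts, and none of these differences was tested, since each list is 1 sample and the rhein list was the same at both stages. Over all members, rhein minus DMSO was -5 members and -23 peaks at MCE and 2 members and 16 peaks at Diff. For hnRNPs it was -1 member and -3 peaks at MCE, and 3 members and 11 peaks at Diff. Writer partners had -4 peaks at MCE and 6 at Diff, and stabilizing and FMRP-family genes -3 and 1. The DMSO MCE list had 5128 peaks and the DMSO Diff list 2944, beside 3069 in rhein MCE, so the whole lists moved in the same directions, and the part of list length was not tested.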

How the results depend on the processing

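Counts of members and of peaks were within 1.5 times their values when a single exonic base sufficed, when the listed symbol was used, and when the rhein Diff list replaced rhein MCE. At the stricter score, read as an adjusted p-value below 0.001, members with a peak were 17, 16, 12 and 12 in DMSO Pre, DMSO MCE, DMSO Diff and rhein, and their peaks 21, 29, 15 and 20. Of the member peaks 23.5% were then in the 3′ UTR in DMSO Pre, and 0% in the 5′ UTR in DMSO Diff. With lists of equal length, DMSO MCE had 57 member peaks, and 35.8% of DMSO Pre member peaks were shared with it. With the authors' listed parts, the coding share was 44.4% in DMSO MCE and 39.2% in DMSO Diff, and the 3′ UTR share 52.8% in DMSO Pre and 47.1% in DMSO Diff. Within 100 bases of the end of the coding sequence lay 11.5% of member peaks in DMSO MCE. An exon minimum of 1000 bases, added after seeing the data, gave 11.5%, 20.5% and 15.1% in long internal exons in DMSO MCE, DMSO Diff and rhein. The stricter score, applied to these places after seeing the data, put 0% of DMSO Diff member peaks near the end of the coding sequence, and 18.2% in DMSO Diff and 5.56% in rhein in long internal exons. The cause of these changes was not tested. Depth limits every absence, and no paired analysis was possible because each condition had 1 IP library, as a result of which no library could be left out.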
